A study of Mus musculus with 191 samples.

Results

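S100a8, S100a9, Retnlg, Anxa1, Slfn4, Ifitm6 and Stfa3 are 7 genes that mature mouse neutrophils transcribe and that are not granule proteases: cytosolic proteins, secreted small proteins and proteins linked to interferon. They were taken by name from the deposited tables of 5 mouse tissues, in which 21205 genes had a row in at least 1 tissue. All 7 had a row in bone marrow and in skin, 6 in lung (not Stfa3), 4 in liver (S100a8, S100a9, Slfn4 and Anxa1) and 2 in gut (Slfn4 and Anxa1). RNA was sequenced around the day to compare tissues with and without neutrophil depletion, and the time is given as zeitgeber time (ZT), hours counted from lights on.

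S100A8 and S100A9 pair into calprotectin, a calcium- and zinc-binding dimer that fills the neutrophil cytosol and, once released, acts as an alarmin on the receptors TLR4 and RAGE. Retnlg encodes resistin-like gamma, a small secreted protein made by myeloid cells. Annexin A1, from Anxa1, binds phospholipids and is a mediator of the resolution of inflammation that many epithelial cells make as well, as do stressed keratinocytes with S100a8, S100a9 and the stefins. Slfn4 belongs to the schlafen family, whose members are induced by interferon and Toll-like receptor signals in myeloid cells, and Ifitm6 to the interferon-induced transmembrane family. Stefin A3, from Stfa3, is an inhibitor of cysteine proteases. Mature neutrophils leave the bone marrow in a daily rhythm, so their transcripts in a tissue can change with the hour.

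For gut, liver, lung and bone marrow, 18 libraries per tissue came from C57BL/6 mice given anti-Ly6G (clone 1A8, against a surface protein of neutrophils) and 18 from mice given IgG, each at 3 µg per g on 2 consecutive days, with 3 mice at each of 6 times (ZT 1, 5, 9, 13, 17 and 21). Per the labels, mice were kept in normal light or in cabinets inverted by 12 h, and which mouse was kept where is not given. In skin, 16 libraries came from Mrp8CRE; iDTR mice, in which Cre driven by the MRP8 (S100A8) promoter switches on the diphtheria toxin receptor, 15 from Mrp8CRE; Bmal1-flox mice, in which the same Cre removes the clock gene Arntl, and 16 from mice labelled control, 1 mouse at each of up to 16 times. The iDTR and control mice received diphtheria toxin at 10 µg per kg, and the labels give none for Bmal1-flox mice. Cells other than neutrophils could have recombined, and which skin cells did was not measured.

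Libraries held 7.68 to 30.9 M recovered reads (M, 10 to the power 6). Values are the deposited normalized signal, scaled close to counts per total of 10 to the power 6, and comparisons are log2 differences of signal + 1 from limma, adjusted over all genes tested in a tissue (mean signal of at least 1). Tables of different tissues were normalized separately. Some libraries or labels stood apart. In lung, the clock output gene Dbp peaked at labelled ZT 0.301 in anti-Ly6G mice and 3.44 in IgG mice, against 9.68 and 10.1 in gut, so lung times are the labelled ones only. In skin, Gt(ROSA)26Sor, the transcript of the locus that carries the toxin receptor, had a median of 0.604 in iDTR, 26.3 in Bmal1-flox and 0.798 in control mice, so whether the control mice, labelled as wild type, carry an allele at this locus was not tested, they are called control here, and both skin comparisons are against mice whose genotype there is in doubt. In gut, 3 IgG libraries of ZT 21 carry in their titles the letters bm in place of the co of the other IgG gut titles, while their labels of tissue, treatment and time say gut, IgG and ZT 21, and they were used so. In bone marrow, the anti-Ly6G library of replicate 10 (ZT 13) was the highest of all 36 in 6 of the 7 genes. Ly6g, the target of the antibody, had a mean of 118 in anti-Ly6G and 104 in IgG marrow, where it was called higher after anti-Ly6G. Its means were 0.628 in anti-Ly6G and 0.530 in IgG liver, and it had no row in lung or skin. The tissue labels matched their markers, with Sftpc at 14458 or above in every lung, Alb at 46442 or above in every liver, Krt14 at 3328 or above in every skin and Vil1 at 596 or above in every gut library. Bulk RNA cannot tell apart fewer cells of a type and less RNA per cell.

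The genes lie on chromosomes 3 (S100a8 at 90668978 to 90670035, plus strand, and S100a9 at 90692632 to 90695721, minus strand), 16 (Stfa3 at 36450537 to 36455392, minus, and Retnlg at 48872621 to 48874496, plus), 11 (Slfn4 at 83175186 to 83190216, plus), 7 (Ifitm6 at 141015699 to 141017924, minus) and 19 (Anxa1 at 20373428 to 20390944, minus), in GRCm38 with the GENCODE M21 annotation. Exact 50-base stretches of Slfn4 transcripts were shared with other schlafen genes (Slfn1, Slfn2, Slfn3 and Gm11427) for 10.8% of positions, so its reads could be split among them, while none of the other 6 genes shared such a stretch.

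The 250 bases before the RefSeq start (GRCm38.p6) are shown for S100a8 and S100a9, the neighbours whose levels moved together from library to library, and for Slfn4 and Ifitm6, the interferon-linked members. All 7 genes had a RefSeq promoter. Capitals mark a match on either strand to 1 of 4 motifs, and no motif overlapped another: the E-box of the clock (CACGTG), a C/EBP site (TTGCNNAA), a PU.1 site (GAGGAAGT) and an interferon-stimulated response element, by name. S100a8 is at chr3:90668821-90669070 (plus), S100a9 at chr3:90695722-90695971 (minus), Slfn4 at chr11:83174936-83175185 (plus) and Ifitm6 at chr7:141016893-141017142 (minus). By the GENCODE positions above, the windows of Ifitm6 and Anxa1 lie inside the gene, and that of S100a8 overlaps the start of its gene. The matches below therefore hold for the RefSeq starts only.
S100a8: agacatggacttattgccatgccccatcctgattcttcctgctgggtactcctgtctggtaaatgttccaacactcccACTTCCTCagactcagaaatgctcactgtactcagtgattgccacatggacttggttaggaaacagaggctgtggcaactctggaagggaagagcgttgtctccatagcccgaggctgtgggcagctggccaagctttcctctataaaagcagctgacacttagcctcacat
S100a9: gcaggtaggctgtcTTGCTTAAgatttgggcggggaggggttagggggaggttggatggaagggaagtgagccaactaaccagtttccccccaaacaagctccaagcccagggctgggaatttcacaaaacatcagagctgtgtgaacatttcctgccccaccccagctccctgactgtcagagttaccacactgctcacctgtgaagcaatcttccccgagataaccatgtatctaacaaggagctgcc
Slfn4: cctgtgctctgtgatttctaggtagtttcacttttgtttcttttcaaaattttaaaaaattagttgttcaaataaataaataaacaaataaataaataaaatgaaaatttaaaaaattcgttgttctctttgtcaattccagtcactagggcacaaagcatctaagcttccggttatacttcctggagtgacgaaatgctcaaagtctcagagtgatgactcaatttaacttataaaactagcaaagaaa
Ifitm6: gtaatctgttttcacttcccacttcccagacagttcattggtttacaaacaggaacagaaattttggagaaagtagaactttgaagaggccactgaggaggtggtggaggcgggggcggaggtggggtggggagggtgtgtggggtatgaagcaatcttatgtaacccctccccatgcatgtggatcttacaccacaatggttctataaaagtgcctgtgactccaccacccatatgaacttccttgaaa
S100a8 held a PU.1 match on the opposite strand, starting 172 bases before the start, and S100a9 a C/EBP match starting 236 bases before it. Retnlg and Anxa1 also held a C/EBP match, and the windows of Slfn4, Ifitm6 and Stfa3 held none of the 4 motifs. Over 32851 mouse promoter windows of this length, 2.44% held the PU.1 letters, 9.56% the C/EBP letters, 6.02% the E-box and 2.98% the interferon element. These are letter matches and not measured sites.

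Bone marrow, where neutrophils form, held the highest signal of 6 of the genes. Per kilobase of exon, the mean signal in anti-Ly6G marrow and IgG marrow was 16570 and 15271 for S100a9, 8846 and 7914 for S100a8, 1147 and 1147 for Retnlg, 364 and 300 for Anxa1, 265 and 184 for Ifitm6, 110 and 82.9 for Slfn4, and 5.74 and 3.74 for Stfa3. That order was the same in both groups. In IgG or control mice, the mean signal of S100a8 was 5492 in marrow, 7.38 ± 4.58 in lung, 5.01 ± 3.76 in skin and 0.315 ± 0.195 in liver, and lung and skin overlapped. S100a9 followed the same order. Retnlg was at 680.0 in marrow and 1.74 in lung, with every lung library above every control skin library (0.118 on average). Slfn4 was at 329 in marrow and 132 in gut, and did not differ beyond its spread between skin (4.49 ± 4.61) and lung (3.63 ± 1.72), with liver at 0.577. Ifitm6 was at 167 in marrow, and lung (1.84 ± 0.586) and skin (0.545 ± 0.522) overlapped. Anxa1 was spread more evenly, at 873 in marrow, 562 in skin, 250.3 in lung and 202 in gut (the last 2 overlapping) and 2.67 in liver. Stfa3 was the only member without its highest level in marrow, at 1.54 ± 0.406 there and 3.57 ± 2.92 in control skin, which overlapped. As the tables were scaled separately, these levels are side by side and untested.

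**Figure D1:**
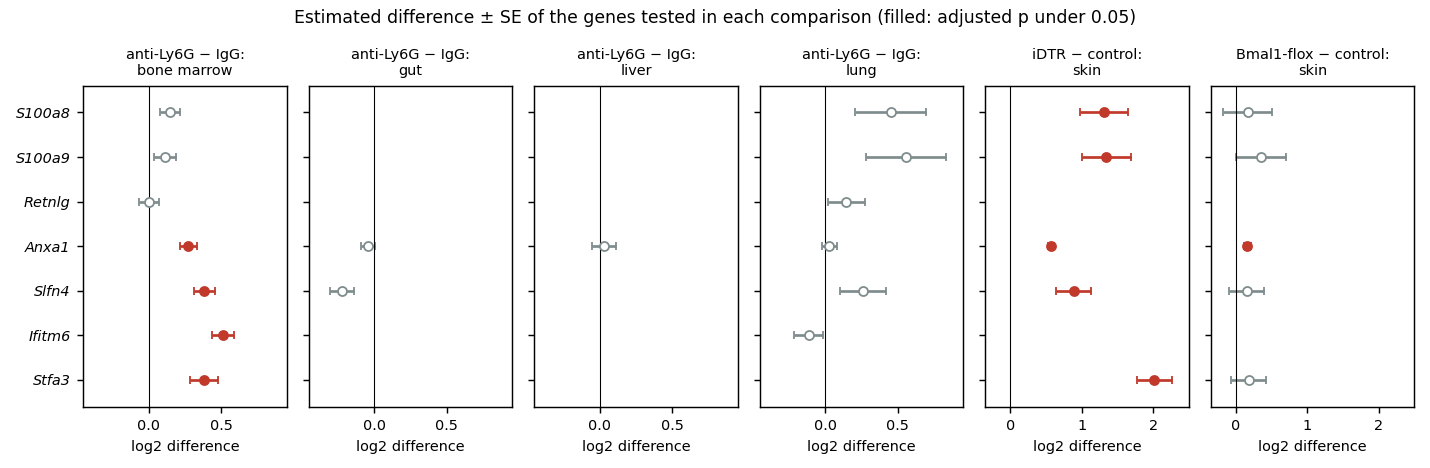
Estimated log2 difference ± SE of signal + 1 for each gene tested, anti-Ly6G minus IgG in 4 tissues and iDTR or Bmal1-flox minus control in skin. Filled red points have an adjusted p under 0.05. The x axis is shared by the 4 antibody panels and by the 2 skin panels. In marrow 4 genes, in iDTR skin 5 genes and in Bmal1-flox skin Anxa1 were higher, while no gene passed in gut, liver or lung.

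In bone marrow after anti-Ly6G, the 2 interferon-linked genes, annexin A1 and stefin A3 rose, while both genes of calprotectin and resistin-like gamma did not pass the test. Ifitm6 rose 1.43-fold, Slfn4 1.31-fold, Stfa3 1.30-fold and Anxa1 1.21-fold. Thus 4 of 7 genes were higher and none was lower, where 9.95% of the 14289 genes tested were higher and 7.16% lower. The median log2 difference was 0.27 over the 7 genes and -0.00 over all genes.

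Ifitm6 had a lowest, median and highest signal of 166, 233 and 380 in anti-Ly6G marrow, against 132, 166 and 245 in IgG marrow. The groups overlapped, with 5 of 18 anti-Ly6G libraries above every IgG library, and the anti-Ly6G mean was the higher at 6 of 6 times. Its log2 difference was 0.51 (SE 0.0769; adjusted p = 1.57e-05, limma). Among its relatives, 3 of the 5 other Ifitm genes tested rose, Ifitm1 (log2 0.45), Ifitm2 (0.30) and Ifitm3 (0.17), which restrict the entry of viruses into cells.

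Slfn4 had 335, 397 and 671 in anti-Ly6G marrow (lowest, median and highest), against 269, 329 and 398 in IgG marrow. The groups overlapped in part, with 9 of 18 anti-Ly6G libraries above the highest IgG library and a higher anti-Ly6G mean at 6 of 6 times. The log2 difference was 0.38 (SE 0.0745; adjusted p = 0.000399, limma). None of the 7 other schlafen genes tested passed, and their median log2 difference was 0.02. Of 19 interferon-stimulated genes tested, none was higher and 2 were lower, Rsad2 (log2 -0.22) and Ifit3 (-0.34), with a median of -0.11.

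Anxa1 averaged 1059 ± 155 in anti-Ly6G and 873 ± 93.4 in IgG marrow (SD, n = 18 each). Both groups overlapped, and the anti-Ly6G mean was the higher at 5 of 6 times. The log2 difference was 0.27 (SE 0.0563; adjusted p = 0.000783, limma). Of 8 other annexin genes tested, 3 rose, Anxa3 (log2 0.30), Anxa11 (0.23) and Anxa2 (0.15). Anxa1 can be induced by glucocorticoids, and of 10 glucocorticoid response genes 3 rose (Per1, Fkbp5 and Tsc22d3) and 2 fell (Dusp1 and Mt2). The part of glucocorticoids in the rise of Anxa1 was not tested.

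Stfa3 was the rarest, at 2.37 ± 0.835 in anti-Ly6G and 1.54 ± 0.406 in IgG marrow. Its anti-Ly6G mean was the higher at 6 of 6 times, with 10 of 18 libraries above the highest IgG library. The log2 difference was 0.38 (SE 0.0954; adjusted p = 0.00458, limma) and, being so low a level, was 0.17 with a pseudocount of 5, still past the test. Of the 4 other stefins tested, 2 rose, BC100530 (log2 0.46) and Stfa2l1 (0.34).

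S100a8 had 4546, 6011 and 9363 in anti-Ly6G marrow (lowest, median and highest), against 4470, 5462 and 6870 in IgG marrow. Its log2 difference was 0.15 (SE 0.0696; adjusted p = 0.139, limma). S100a9 had 6730, 8308 and 12898 in anti-Ly6G marrow, against 6227, 7790 and 11313 in IgG marrow, a log2 difference of 0.11 (SE 0.0728; adjusted p = 0.303, limma), which passed after quantile normalization alone (0.22; adjusted p = 0.0183). Retnlg averaged 680.4 in anti-Ly6G and 680.0 in IgG marrow, with a log2 difference of 0.00 (SE 0.0676; adjusted p = 0.993, limma). These 3 genes were the most abundant per kilobase, and their groups overlapped nearly whole. Of 7 other S100 genes tested, S100a6 (log2 0.27) and S100a11 (0.16) rose.

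**Figure D2:**
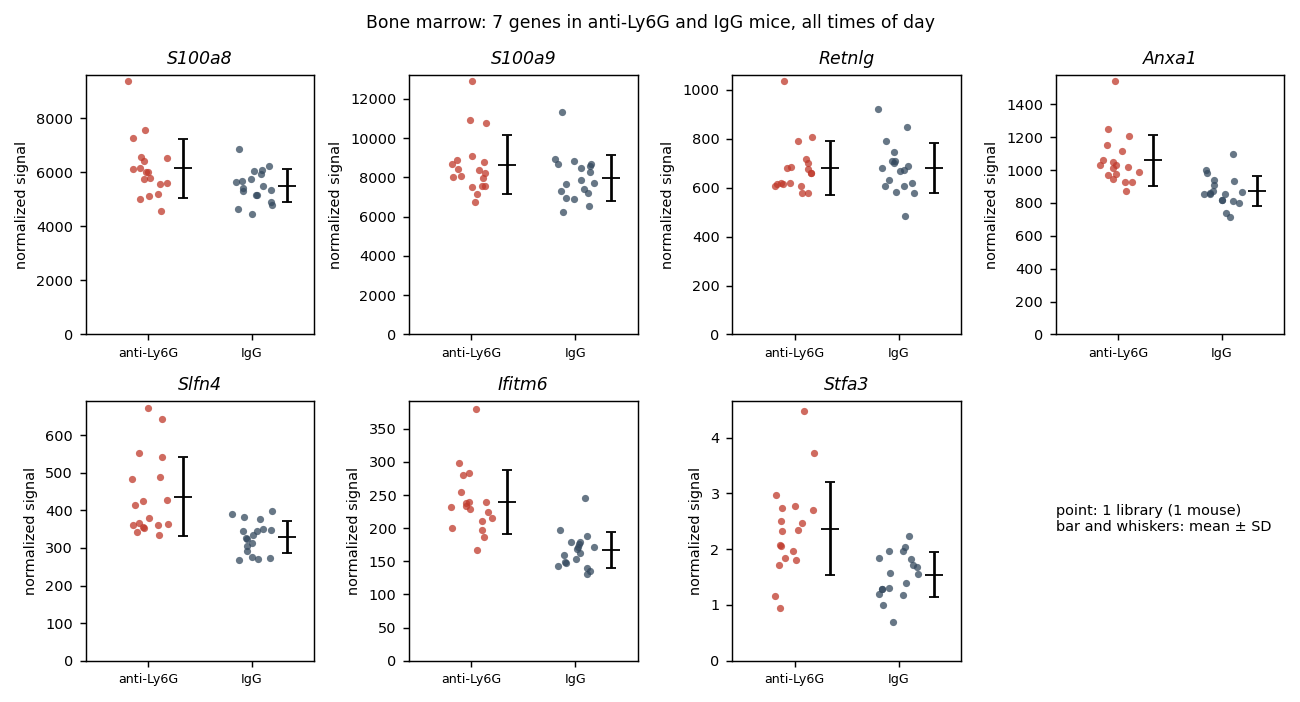
Normalized signal of the 7 genes in each of 36 bone marrow libraries, anti-Ly6G left and IgG right, with mean ± SD, on linear axes from 0. Ifitm6, Slfn4, Anxa1 and Stfa3 lie higher in anti-Ly6G mice with overlap. The highest point of S100a8 (9363) is the library of replicate 10.

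Other marker lists were counted in the same libraries. Of 23 other mature neutrophil genes tested, 10 rose, among them Hdc (log2 0.36), Cd177 (0.36) and Ly6g. The 10 include the stefins BC100530 and Stfa2l1, already counted above. In the same list 3 fell, among them Csf3r, the receptor of the growth factor G-CSF (-0.23), and 10 did not pass. Of 8 granule genes, which immature neutrophils transcribe, 7 rose, among them Prtn3 (log2 0.67) and Mpo (0.51). Of 8 monocyte genes, 6 rose, among them Fn1 (log2 0.33), F13a1 (0.27) and Ly6c2 (0.23), and their summed signal ran between 3158 and 6569 in anti-Ly6G and between 2873 and 3750 in IgG marrow. Of 6 erythroid genes, 3 fell, among them Hbb-bs (log2 -0.31), and their summed signal ran between 52153 and 127710 in anti-Ly6G and between 89148 and 133464 in IgG marrow. The part of these cells in the rise of the 4 genes was not tested. Without the library of replicate 10, all 4 stayed past the test, with log2 differences of 0.45 for Ifitm6, 0.35 for Slfn4, 0.33 for Stfa3 and 0.23 for Anxa1.

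At single times, with 3 mice a group, Slfn4 passed at ZT 1 (log2 0.69; adjusted p = 0.0411, limma) and ZT 13 (0.68; adjusted p = 0.0134), and Ifitm6 (0.67; adjusted p = 0.0365) and Anxa1 (adjusted p = 0.0168) at ZT 13. Genes called higher made up 0.987% of all at ZT 1 and 4.52% at ZT 13. Slfn4 read 671, 489 and 551 in anti-Ly6G against 345, 376 and 333 in IgG marrow at ZT 1. At ZT 13 it read 641, 482 and 361 in anti-Ly6G against 325, 272 and 305 in IgG marrow, and the first of these is replicate 10. Without that library none of the 3 genes passed at ZT 13 (adjusted p = 0.24, 0.445 and 0.299 for Slfn4, Ifitm6 and Anxa1), Slfn4 still passed at ZT 1 (0.0092) and Ifitm6 passed at ZT 21 (0.0274; 0.178 with all libraries, when 0.119% of genes were called higher there). The interaction of antibody and time passed for none of the 7 (0.021% of genes), and none had a 24 h rhythm in either marrow group (0.406% of genes did in anti-Ly6G and 1.62% in IgG).

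In liver, S100a8 and S100a9 were near the limit of detection and were higher after anti-Ly6G. S100a8 averaged 0.970 ± 0.676 in anti-Ly6G and 0.315 ± 0.195 in IgG liver (SD, n = 18 each), which stood for a median of 10 and 3 recovered reads. Of 18 anti-Ly6G libraries, 9 lay above the highest IgG library. S100a9 averaged 1.27 ± 0.937 in anti-Ly6G and 0.491 ± 0.307 in IgG liver, a median of 14 and 5 reads, and was the higher at 6 of 6 times. Both fell under the filter on mean signal. Fitted with no filter, S100a8 had a log2 difference of 0.53 (SE 0.103; adjusted p = 0.00765, limma) and S100a9 one of 0.54 (SE 0.109; adjusted p = 0.00856), on a scale that understates low genes. With no filter, 0.581% of 14451 genes were called higher, and 0.776% of those above the filter.

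In anti-Ly6G liver, S100a8 means were highest at ZT 1 and 5, while the highest IgG mean was at ZT 9. S100a8 read 1.82, 2.80 and 0.929 at ZT 1 and 1.65, 1.86 and 0.935 at ZT 5 in anti-Ly6G liver, against 0.519, 0.318 and 0.143 at ZT 1 and 0.446, 0.101 and 0.312 at ZT 5 in IgG liver. At ZT 9 S100a8 read 0.404, 0.223 and 0.632 in anti-Ly6G and 0.553, 0.792 and 0.234 in IgG liver. With no filter, a 24 h rhythm passed in anti-Ly6G liver for S100a8 (peak at ZT 1.66; adjusted p = 0.00275, limma) and S100a9 (peak at ZT 2.80; adjusted p = 0.0108), and in IgG liver for neither (adjusted p = 0.814 and 0.288). The difference between the rhythms of the groups passed for no member in liver, with or without the filter. The same held for the interaction of antibody and time, so a dependence of the antibody effect on time was not shown. With no filter, 30.0% of genes in anti-Ly6G and 37.4% in IgG liver had a called rhythm (34.7% and 42.9% of those above the filter). The antibody effect lost its call without ZT 5 for S100a8 (adjusted p = 0.0707) and S100a9 (0.0721), and held without each other time or any 1 library.

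Slfn4 averaged 0.807 ± 0.447 in anti-Ly6G and 0.577 ± 0.204 in IgG liver and did not pass with no filter (log2 0.17; adjusted p = 0.423, limma). Anxa1, the 1 member above the filter, averaged 2.72 ± 0.556 in anti-Ly6G and 2.67 ± 0.807 in IgG liver (log2 0.03; adjusted p = 0.916, limma), where 1.4% of 12504 genes were called. The granule genes Mmp8, Ngp, Camp, Ltf, Elane and Mpo had no row in liver. Lcn2, a granule gene that hepatocytes also make, rose (log2 1.48), as did Slfn2 (0.32) and 5 of 10 glucocorticoid response genes, among them Per1 (0.93). Of 9 macrophage genes and 4 monocyte genes tested in liver, none passed and all had a positive difference (median log2 0.34 and 0.20), with the summed signal of the macrophage genes between 214 and 471 in anti-Ly6G and between 138 and 371 in IgG liver. Of 8 other mature neutrophil genes tested in liver, none passed and 4 had a positive difference (median log2 0.0044). Among them, Csf3r averaged 1.88 in anti-Ly6G and 1.31 in IgG liver (log2 0.30; adjusted p = 0.0878, limma), and Cxcr2 1.14 and 1.24. The part of these cells in the higher S100a8 and S100a9 was not tested. Hbb-bs, a marker of red cells, had medians of 59.1 in anti-Ly6G and 52.6 in IgG liver.

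In lung, none of the 6 genes passed after anti-Ly6G, and no gene of 15641 did in all (0.0% called; 1462, or 9.35%, at an unadjusted p under 0.05). S100a8 had 1.80, 9.69 and 37.1 in anti-Ly6G lung (lowest, median and highest), against 1.00, 6.55 and 14.2 in IgG lung, a log2 difference of 0.45 (SE 0.244; adjusted p = 0.58, limma). S100a9 had 1.49, 12.9 and 54.2 in anti-Ly6G lung, against 1.46, 8.42 and 19.2 in IgG lung, a log2 difference of 0.55 (SE 0.275; adjusted p = 0.537, limma). The spread between mice was large and the groups overlapped nearly whole. Slfn4 (log2 0.26), Retnlg (0.15), Anxa1 (0.03) and Ifitm6 (-0.11) did not pass either.

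By labelled time, none of the 6 genes had a called 24 h rhythm in anti-Ly6G lung (adjusted p = 0.123 to 0.742, limma; 12.7% of genes did), and 3 had one in IgG lung, where 11.2% of genes did. In IgG lung, Slfn4 (peak at labelled ZT 19.7, 2.26-fold from peak to trough; adjusted p = 0.0149, limma), S100a9 (19.5, 3.74-fold; 0.0343) and Retnlg (1.91-fold; 0.0435) passed, and S100a8 was just outside (19.4, 3.05-fold; 0.0559). S100a9 averaged 27.9 at labelled ZT 1, where 1 library read 54.2, and 15.1, 11.2 and 14.4 at ZT 5, 17 and 21 in anti-Ly6G lung. In IgG lung it averaged 11.9 at ZT 1, 3.45 at ZT 5 and 14.6 at both ZT 17 and ZT 21. The difference between the 2 rhythms did not pass for any (adjusted p = 0.478 for S100a9 and 0.403 for Slfn4; 0.0511% of genes passed). The calls were fragile: none held with ZT as a factor or without ZT 9 or ZT 21, and only Slfn4 held without ZT 1, ZT 5 or ZT 17 or without IgG replicate 5, 6, 9, 13, 14 or 18.

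In gut, the table held Slfn4 and Anxa1, and neither passed the test of level after anti-Ly6G, where 0.0132% of 15158 genes were called. Slfn4 averaged 113 ± 21.3 in anti-Ly6G and 132 ± 26.4 in IgG gut (SD, n = 18 each), a log2 difference of -0.22 (SE 0.0805; adjusted p = 0.234, limma). Anxa1 averaged 195 ± 29.0 in anti-Ly6G and 202 ± 41.8 in IgG gut (log2 -0.04, SE 0.0509; adjusted p = 0.757, limma). Ly6g had a mean of 150 in anti-Ly6G and 160 in IgG gut (log2 difference not called), while the granule genes Mmp8, Ngp, Camp, Elane and Mpo and the calprotectin genes had no row in gut.

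Both gut genes had a called rhythm in IgG mice, and Anxa1 in both groups. Anxa1 peaked at ZT 16.8 in anti-Ly6G (1.42-fold from peak to trough; adjusted p = 0.0014, limma) and at ZT 16.5 in IgG gut (1.59-fold; adjusted p = 3.37e-05). It averaged 151 at ZT 5 and 222 at ZT 17 in anti-Ly6G, and 158 and 253 at these times in IgG gut. Slfn4 means in anti-Ly6G gut stayed between 105 at ZT 21 and 122 at ZT 9, and no rhythm passed (adjusted p = 0.807, limma). In IgG gut Slfn4 peaked at ZT 10.1 (1.54-fold; adjusted p = 0.00679, limma), with means of 99.2 at ZT 1 and 163 at ZT 9. The difference between the Slfn4 rhythms did not pass (p = 0.086; adjusted p = 0.801, limma), as it did for no gene in gut (0.0%). In all, 24.6% of genes in anti-Ly6G and 33.6% in IgG gut had a called rhythm. Without ZT 5 the Anxa1 rhythm was not called in anti-Ly6G gut, and without ZT 9 that of Slfn4 was not called in IgG gut. Without ZT 21, which holds the IgG libraries with other titles, neither gene passed the test of level (Slfn4 log2 -0.24, adjusted p = 0.331; Anxa1 -0.06, adjusted p = 0.74, limma), and the rhythms called were those of Anxa1 in anti-Ly6G gut and of Anxa1 and Slfn4 in IgG gut, as with it.

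**Figure D3:**
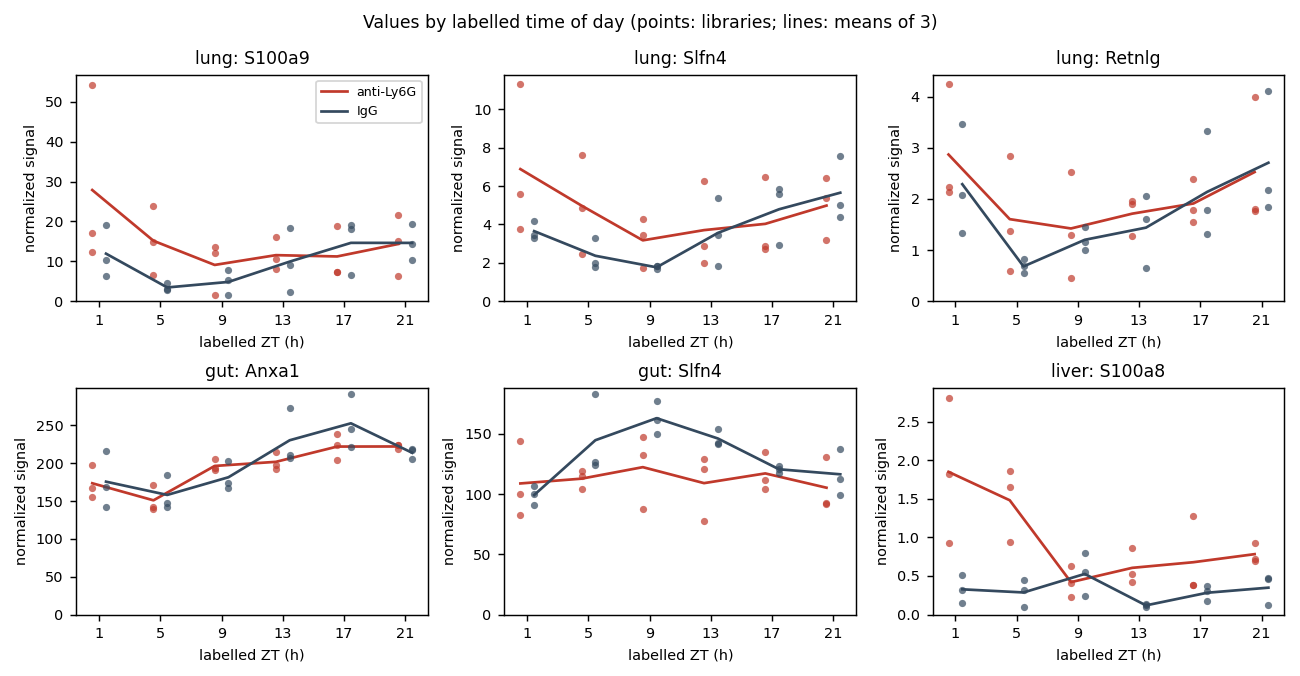
Normalized signal by labelled ZT (h) in lung, gut and liver for 5 genes, anti-Ly6G in red and IgG in dark blue. Points are libraries, lines are means of 3 mice, and axes are linear from 0. Anxa1 in gut follows the same course in both groups, with its highest mean at ZT 17 or 21, and S100a8 in anti-Ly6G liver is highest at ZT 1 and 5.

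In skin of toxin-treated iDTR mice, the 5 genes tested were all higher than in control mice, Stfa3 4.05-fold, S100a9 2.54-fold, S100a8 2.49-fold, Slfn4 1.85-fold and Anxa1 1.48-fold. This stands in a tissue in which 63.0% of 15946 genes were called (30.6% of all genes higher and 32.4% lower), so being called says little about these genes. The other members, Retnlg and Ifitm6, were under the filter. The fold of the low genes depended on the pseudocount, and with 5 the log2 differences were 1.31 for Stfa3, 0.87 for S100a8 and 0.54 for Slfn4, each past the test.

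Stfa3 had 4.75, 16.5 and 39.4 in iDTR skin (lowest, median and highest), against 0.845, 2.76 and 12.2 in control skin. It was the higher in iDTR mice at 16 of 16 times, with 11 of 16 libraries above every control library (log2 2.02, SE 0.242; adjusted p = 5.76e-10, limma). All 3 other stefins tested rose, BC100530 (log2 2.97), Stfa1 (2.06) and Cstb (0.71).

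S100a8 had 3.95, 8.19 and 47.2 in iDTR skin, against 0.830, 4.08 and 12.6 in control skin (log2 1.32, SE 0.334; adjusted p = 0.00065, limma). S100a9 had 2.49, 9.67 and 57.3 in iDTR skin, against 0.743, 5.51 and 13.3 in control skin (log2 1.34, SE 0.345; adjusted p = 0.000726, limma). In each gene 7 of 16 iDTR libraries lay above every control library and the other 9 within the control range. Of 9 other S100 genes tested, 5 rose, among them S100a11 (log2 0.83), and 3 fell, among them S100a3 (-0.75). Of 4 genes for receptors of the dimer, Tlr4 (log2 0.25) and Bsg rose while Cd36 and Ager, which encodes RAGE, fell.

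Anxa1 was the steadiest, at 836 ± 99.7 in iDTR and 562 ± 58.2 in control skin (SD, n = 16 each), and the lowest iDTR library (680.9) lay above the highest control library (679.0). Its log2 difference was 0.57 (SE 0.0479; adjusted p = 1.43e-14, limma). The share of all genes whose iDTR and control libraries do not overlap is not given here, while 63.0% of 15946 genes were called. Of 9 other annexin genes, 5 rose, among them Anxa3 (log2 0.98) and Anxa2 (0.74), and 2 fell, Anxa6 (-0.32) and Anxa5 (-0.15).

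Slfn4 had 3.67, 5.75 and 34.6 in iDTR skin, against 1.88, 2.94 and 20.7 in control skin (log2 0.89, SE 0.243; adjusted p = 0.00148, limma), with overlap and 1 iDTR library above every control. Of 5 other schlafen genes, Slfn2 (log2 0.75) and Slfn9 (0.49) rose. Of 17 interferon-stimulated genes tested, 14 rose and none fell, among them Cxcl10 (log2 1.82) and Isg15 (1.59), with a median of 0.50. Of 5 Ifitm genes, 4 rose, among them Ifitm3 (log2 1.82), and Ifitm10 fell (-0.28).

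Ifitm6 averaged 0.734 ± 0.516 in iDTR and 0.545 ± 0.522 in control skin and did not pass with no filter (log2 0.17; adjusted p = 0.278, limma). Retnlg averaged 0.332 ± 0.466 in iDTR and 0.118 ± 0.101 in control skin, a median of 2 and 0.5 recovered reads (log2 0.20; adjusted p = 0.0647, limma; 27.7% of genes were called higher with no filter). It passed without iDTR replicate 6, 10 or 13 or control replicate 15 (adjusted p = 0.0347 to 0.0461). With no filter Retnlg had a called rhythm in iDTR skin (peak at ZT 14.6; adjusted p = 0.0190, limma), as did 9.15% of genes, resting on those few reads. Its relatives Retn (log2 -0.84) and Retnla (-0.94), which fat and other tissue cells make, fell.

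Markers of other cells moved in the same skins. Of 8 keratinocyte stress genes, 6 rose, among them Krt16 (log2 3.96), Krt6a (3.87) and Krt6b (3.49), and their summed signal ran between 2193 and 5397 in iDTR and between 292 and 734 in control skin, without overlap. Of 14 other mature neutrophil genes tested, 10 rose and 3 fell, and the 10 include the stefins BC100530 and Stfa1, already counted above. Cxcr2, the chemokine receptor of neutrophils, had a median of 20.9 in iDTR and 11.3 in control skin. Several granule genes of neutrophils were near 0, with medians of 0.858 in iDTR and 0.216 in control skin for Mmp8 and 0.253 and 0.0423 for Ngp, and Camp, Elane and Ly6g had no row. Mpo, the myeloperoxidase gene, had the lower median in iDTR skin, at 0.112, against 0.379 in control skin. Of the 2 granule genes above the filter, Lcn2, which keratinocytes also make, rose (log2 2.55) and Ctsg, which mast cells also make, fell (-0.62). Of 8 monocyte genes 2 rose and 3 fell. The part of keratinocytes, neutrophils and monocytes in the rise of the 5 genes was not tested.

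**Figure D4:**
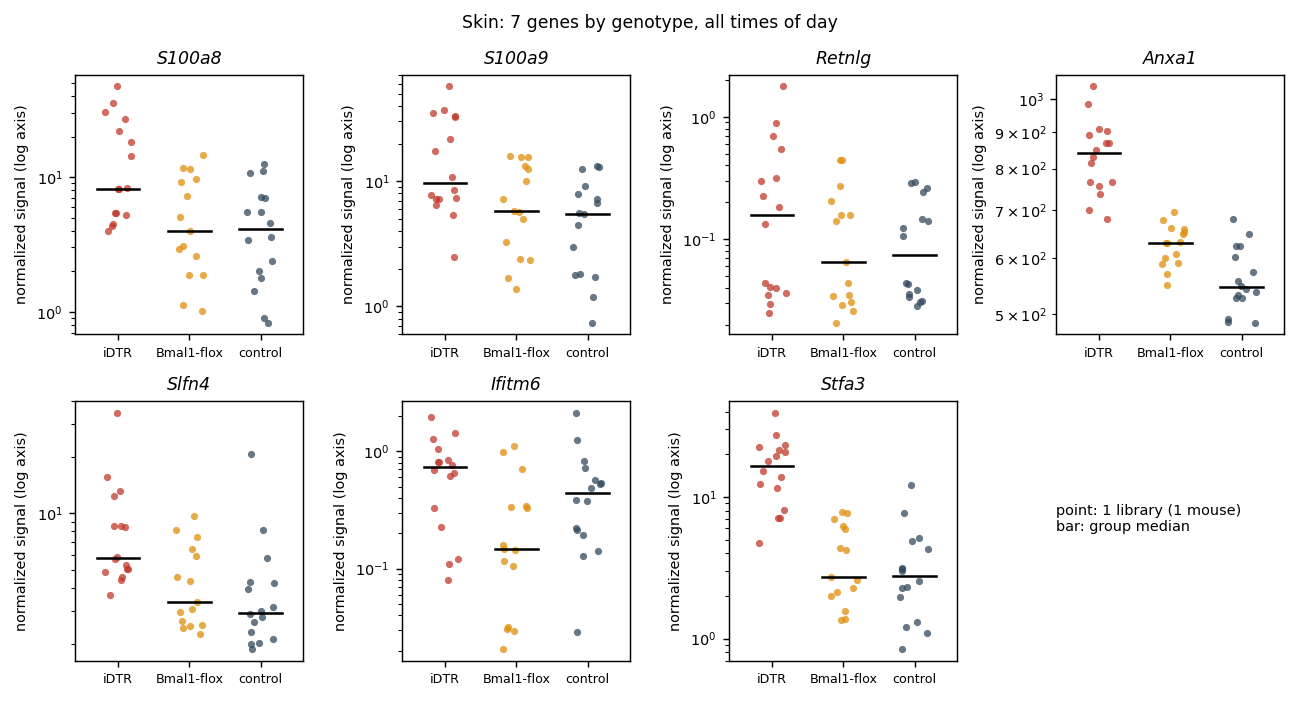
Normalized signal of the 7 genes in each skin library by genotype (iDTR, Bmal1-flox, control), on log axes, with the group median as a bar. For Anxa1, a narrow gap lies between iDTR (from 680.9) and control (up to 679.0). Stfa3 is higher in most iDTR libraries, and Bmal1-flox lies near control in most panels. In Bmal1-flox skin Anxa1 is slightly higher, and the Ifitm6 median, near the floor, is lower (0.148, against 0.437 in control skin).

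In skin of Bmal1-flox mice, Anxa1 alone of the 5 genes passed, at 626 ± 41.2 in Bmal1-flox (SD, n = 15) and 562 ± 58.2 in control skin (n = 16), a log2 difference of 0.16 (SE 0.0487; adjusted p = 0.0347, limma). In all, 5.63% of genes were called, 2.41% higher and 3.21% lower. The call was lost with no time term and without any 1 of Bmal1-flox replicates 1, 3, 4, 6 and 16 and control replicates 3, 5, 6, 11, 13 and 15 (adjusted p up to 0.0701). S100a9 (log2 0.35), Stfa3 (0.18), S100a8 (0.17) and Slfn4 (0.15) did not pass (adjusted p = 0.644 to 0.848). With no filter, Ifitm6 (log2 -0.22; adjusted p = 0.413, limma) and Retnlg (0.03; adjusted p = 0.906) did not pass either. Stfa3 had 1.35, 2.72 and 7.78 in Bmal1-flox skin (lowest, median and highest), against 0.845, 2.76 and 12.2 in control skin, so the groups lay on each other. None of the 17 interferon-stimulated genes passed, and 7 had a positive difference (median log2 -0.02). None of the 8 keratinocyte stress genes passed either, but all 8 had a positive difference (median log2 0.39). Genes of other cells moved in the same skins: of 5 erythroid genes, Hba-a1 (log2 1.45) and Hba-a2 (1.44) rose and all 5 had a positive difference, and of 8 keratinocyte genes, Flg (0.59) rose and all 8 had a positive difference. The stefin gene Cstb (log2 0.27) and Asprv1 (0.31) rose, and the clock gene Per3 fell (-0.30). Bmal1-flox replicate 1 had Alb, a liver transcript, at 1182, against a median of 1.53 in its group, and without it Anxa1 did not pass (log2 0.16; adjusted p = 0.0536, limma). The part of these cells and of this library in the rise of Anxa1 beyond that value was not tested. The iDTR and Bmal1-flox comparisons share the control libraries. Control mice received diphtheria toxin, while the labels give none for Bmal1-flox mice. The transcript of the locus that carries the toxin receptor also had a higher median in Bmal1-flox than in control skin. The Bmal1-flox comparison therefore cannot tell apart loss of Arntl, toxin and an allele at that locus. The part of each in the rise of Anxa1 was not tested.

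None of the 5 genes had a called 24 h rhythm in iDTR, Bmal1-flox or control skin, where 10.9%, 0.326% and 0.383% of genes did. In iDTR skin, Anxa1 (peak at ZT 18.7, 1.22-fold; adjusted p = 0.0832, limma), Stfa3 (21.2, 2.55-fold; 0.141) and Slfn4 (15.0, 2.30-fold; 0.151) came nearest. Over all 26 tests of a difference between rhythms, the smallest adjusted p was 0.201, for Slfn4 in iDTR against control skin, where 0.144% of genes passed.

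S100a8 and S100a9 moved together from mouse to mouse in marrow, lung and skin. Pearson's r of log2(signal + 1) was 0.98 in anti-Ly6G and 0.96 in IgG marrow, 0.97 in anti-Ly6G and 0.99 in IgG lung, and 0.97, 0.97 and 0.95 in iDTR, Bmal1-flox and control skin. Spearman's rho lay between 0.92 and 0.98 there, and each permutation p was 1e-05, the smallest that 100000 permutations can give (adjusted over 9 relations, 1.29e-05). Without the 2 libraries farthest from the median of S100a8, r was between 0.93 and 0.99. In liver, where reads were few, r was 0.75 in anti-Ly6G (rho 0.70; adjusted permutation p = 0.000326 and 0.00179) and 0.55 in IgG mice (rho 0.41; adjusted permutation p = 0.0171 and 0.0916), and 0.62 and 0.33 without those 2 libraries, so the IgG relation rests on them. Both genes are read in the same libraries and share their scaling.

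**Figure D5:**
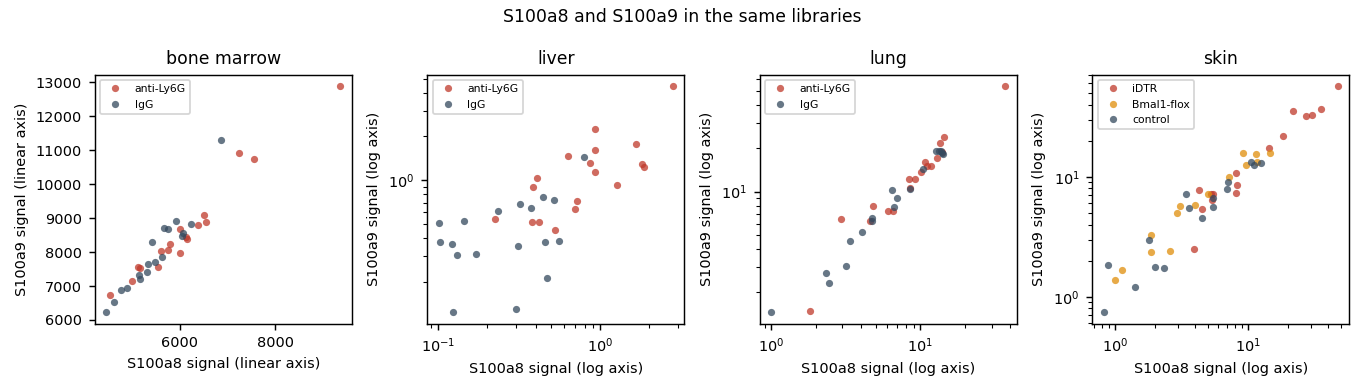
S100a9 against S100a8 in the same libraries of marrow (linear axes), liver, lung and skin (log axes), by group. Points follow 1 line in marrow, lung and skin (r from 0.95 to 0.99 within groups), and scatter in liver at signals near 1.

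The named genes most like each member over all libraries of a tissue differed between tissues. In marrow (36 libraries), S100a8 was closest to Wfdc21 (r = 0.97), and S100a9 to Wfdc21 (0.95), Camp (0.87) and Ly6g (0.86). Retnlg was closest to Msrb1 (0.80) and Ly6g (0.76), Ifitm6 to Ifitm2 (0.90), Anxa1 to Dstn (0.96) and Anxa3 (0.92), Slfn4 to Ppp1r3d (0.85) and Stfa3 to Rnf130 (0.76) and BC100530 (0.76). In lung (36 libraries), S100a8, S100a9 and Slfn4 had the same 3 nearest genes, the cytokine gene Il1b (r = 0.85, 0.86 and 0.89), Csf3r (0.84, 0.84 and 0.88) and the gelatinase gene Mmp9 (0.81, 0.82 and 0.86). In skin (47 libraries), S100a8 and S100a9 were nearest to the stress keratin gene Krt6b (r = 0.80 and 0.81), within iDTR mice at 0.57 and 0.60, within Bmal1-flox mice at 0.88 and 0.90 and within control mice at 0.74 and 0.77. Slfn4 in skin was nearest to Cxcl2 (0.87) and Il1b (0.87), Stfa3 to Stfa1 (0.94) and Anxa1 to Hsp90ab1 (0.93). In gut, Anxa1 was nearest to Anxa2 (0.96) and Slfn4 to the interferon-stimulated gene Oas3 (0.71), and in liver Anxa1 to Copz2 (0.61), each over 36 libraries. Treatment and time are part of these correlations, which describe likeness only.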

How the data were processed

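The 5 tables, 1 per tissue, were deposited by the authors as normalized signal on a linear scale. Per the submitters' processing notes, reads were handled with CASAVA 1.8, cutadapt 1.7.1, RSEM 1.7.1 and limma 3.46 on mm10, while the labels' protocols name RSEM 1.2.20, Kallisto 0.43.1 and Ensembl build 84. The normalization method and gene filter are not given in the sources used here. Each column behaved like RSEM counts plus 0.5, scaled to a nearly constant total. Recovered counts were whole, within 0.01, for 32.1% (lung) to 46.4% (liver) of values, so no count test was run.

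Signals were taken as log2(signal + 1) and genes with a mean of at least 1 were tested with limma 3.58.1 (R 4.3.3, mean-variance trend, two-sided, Benjamini-Hochberg over the genes of a tissue, threshold 0.05). The antibody model held a term for each ZT, and the skin genotype model a 24 h cosine and sine. Rhythms were F tests of those terms within a group, with peaks in hours ZT and folds from peak to trough. The procedure was checked on simulated data. Correlations used 100000 permutations (numpy 2.4.6).

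Groups came from the labels alone. Each library is 1 mouse per the labels, and the p-values measure the spread between these mice. Replicates are numbered in accession order in the antibody tissues and by title in skin. Numbers shared between groups were not taken as pairs in the main fits (sensitivity part). The 7 genes and the gene lists were chosen with earlier results of these data known. Named were all 7 genes, list members past the threshold with the largest changes (up to 4 a list) and Ly6g. Also given were the 3 named genes, other than the 7 members, nearest to each member by Pearson's r. Single markers, and members of lists beyond that rule, were added after values were seen. Other pseudocounts, filters, scaling, time terms and left-out libraries or times were tried. Promoters came from RefSeq (GRCm38.p6).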

Additional observations from a re-analysis of the deposited data

How the results depend on the processing

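Counts of members called were recomputed under other pseudocounts, filters, scaling, trend and time terms, and without each library and each time. Of 27 such counts, 19 kept their value within 1.5 times throughout, and most of these 19 were 0 throughout. Of the counts above 0 in the main fits, those of marrow and of iDTR skin against control held. Those of the gut rhythms, the IgG lung rhythm and Bmal1-flox against control moved. The calls of Ifitm6, Slfn4 and Anxa1 in marrow held in all 49 alternatives, that of Stfa3 in all 48 that tested it (with a filter at a mean of 4 it was not tested), and those of the 5 genes in iDTR skin in all 55. With no filter, 2 members were called for the antibody effect in liver and 2 for the rhythm in anti-Ly6G liver (S100a8 and S100a9), and 1 (Retnlg) for the rhythm in iDTR skin, which also had 1 with a pseudocount of 5 (Stfa3) and between 0 and 1 without 1 library. The anti-Ly6G gut rhythm had 0 without ZT 5, and the IgG gut rhythm 1 without ZT 9. The anti-Ly6G lung rhythm had between 0 and 1 without 1 library. The IgG lung rhythm had 0 when ZT was fitted as a factor, or without ZT 9 or ZT 21, 1 without ZT 1, ZT 5 or ZT 17, and between 1 and 4 without 1 library. Bmal1-flox against control had 0 with no time term and between 0 and 1 without 1 library. The cause of these changes was not tested, apart from the smaller number of libraries or times.

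Uncalled differences near 0 changed sign. Retnlg in marrow was at -0.081 without ZT 13, -0.017 without ZT 17 and between -0.042 and 0.029 without 1 library. Anxa1 was at -0.0185 without ZT 5 and -0.046 without ZT 21 in liver, and at -0.011 without ZT 5 in lung.

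Quantile scaling moved the median of all genes by less than 0.1 in every comparison. With the replicate number as a block, 0 members were called in gut, 5 in iDTR and 1 in Bmal1-flox skin, as without it. Same-numbered libraries correlated above 0.1 in 6 of 18 pairs in gut, 4 of 16 in iDTR and 4 of 15 in Bmal1-flox skin. Of all 18, 16 and 15 pairs, 7, 1 and 4 correlated best with their own number. The number expected without any pairing is not given here. The main fits used no pairing, and these correlations cannot exclude shared housing or processing. In gut, 2 anti-Ly6G libraries (replicates 1 and 6) held transcripts of neighbouring organs; leaving both out, chosen after seeing the data, changed no call. The fits without the marrow library of replicate 10, and those with no filter and a library or time left out, were also chosen after seeing the data. Depth limits S100a8, S100a9 and Slfn4 in liver and Retnlg and Ifitm6 in skin, which rest on a few reads a library.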
